A study of Mus musculus with 4 samples.

Results

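The 40 transcripts described here encode proteins of the G2 phase and of mitosis, from cyclin-dependent kinase 1 and its cyclins to the condensins, the spindle motors and the factors that switch these genes on. These members of the set were taken by name from a fixed list, and all 40 matched a row of the deposited table of 55487 Ensembl gene IDs and passed the filter on low counts that left 19194 genes to test. The cells were group 2 innate lymphoid cells (ILC2s), lymphocytes of tissues that carry no antigen receptor and make type 2 cytokines, sorted from the mouse colon. In culture the cells received IL-7 and IL-2, which support survival, together with IL-33 and IL-25, which activate ILC2s. In 2 libraries the cells had been exposed to FK866 for 16 h, and the 2 control libraries carry no label beyond that word. FK866 inhibits NAMPT, the rate-limiting enzyme of the salvage route that returns nicotinamide to NAD+, and the comparison asks how transcription differs when this route is blocked. The labels name no strain, age, number of animals or vehicle, and none says that replicates came from separate cultures, so every p-value here reflects the spread between single libraries, which may be technical.

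A cell that has copied its DNA enters mitosis when CDK1, bound to cyclin A or cyclin B, is freed of its inhibitory phosphates by CDC25 phosphatases. Polo-like and Aurora kinases then build the spindle, condensin packs the chromosomes, and the spindle checkpoint holds back the anaphase-promoting complex (APC/C) until every kinetochore is attached. Most of these genes are transcribed late in the cycle, when B-MYB and then FOXM1 join the MuvB complex at a promoter element called the cell cycle genes homology region (CHR), usually beside CCAAT boxes that bind NF-Y. In resting cells the same element holds the repressive DREAM complex, so the amount of these transcripts in a bulk sample depends on how many cells are in G2 or mitosis as well as on transcription in each cell. In the bulk libraries used here, fewer cells in those phases and less RNA per cell cannot be told apart.

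The promoter sequences are shown because most members share their architecture. RefSeq promoter windows, from 250 bases before to 50 bases after the transcription start (build GRCm38.p6, 300 bases in all), matched 32 of the 40 members by symbol. The CHR motif TTTGAA stood on either strand in the windows of 24 of these 32 members (75%), against 20.2% of all 27025 genes with a window. A CCAAT motif on either strand stood in 26 of 32 (81.2%), against 41.1% of all genes, and both motifs in 22 of 32 (68.8%), against 8.97%. Windows with at least 2 CCAAT motifs were those of 17 members (53.1%), against 13.3% of all genes. An E2F motif, searched in 4 spellings (TTTCCCGC, TTTCGCGC, TTTGCCGC and TTTGGCGC) on both strands, was found in 3 members (9.38%), namely Cdk1, Ncapg and Ncapd2, against 2.6% of all genes. Neither CHR nor CCAAT was found in the windows of 4 members, Mybl2, Birc5, Mad2l1 and Nusap1. A match is a run of letters and not a site shown to be bound, and different motifs can overlap by no more than an end letter. Only the exact spellings given here were searched, so a window without a match may still hold a site of another spelling.

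Below are the 120 bases before the start of 6 members, 5′ to 3′ on the strand of the gene, with CHR and CCAAT matches in capitals (TTCAAA and ATTGG are the same motifs read on the other strand). They are Mybl2, which had the largest fall, Cdc20, also lower, Cdk1, Ncapg and Top2a, which came nearest to the threshold with a CHR before the start, and Kif11, a motor gene with the same layout and a fold change near that of the typical member. They lie at chr2:163054515-163054634 (plus strand) for Mybl2, chr4:118437344-118437463 (minus strand) for Cdc20, chr10:69352913-69353032 (minus strand) for Cdk1, chr5:45669805-45669924 (plus strand) for Ncapg, chr11:99024190-99024309 (minus strand) for Top2a and chr19:37376262-37376381 (plus strand) for Kif11. The downstream ends of the Cdc20, Cdk1 and Ncapg windows lie in the first exon of a GENCODE transcript that starts earlier than the RefSeq one.
Mybl2: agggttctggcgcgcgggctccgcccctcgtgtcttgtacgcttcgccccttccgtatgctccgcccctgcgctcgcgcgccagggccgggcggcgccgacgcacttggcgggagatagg
Cdc20: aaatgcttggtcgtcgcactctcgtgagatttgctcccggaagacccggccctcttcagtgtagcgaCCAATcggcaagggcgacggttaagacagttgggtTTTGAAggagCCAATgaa
Cdk1: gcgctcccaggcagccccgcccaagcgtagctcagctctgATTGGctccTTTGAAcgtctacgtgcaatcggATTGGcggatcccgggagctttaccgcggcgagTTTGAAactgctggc
Ncapg: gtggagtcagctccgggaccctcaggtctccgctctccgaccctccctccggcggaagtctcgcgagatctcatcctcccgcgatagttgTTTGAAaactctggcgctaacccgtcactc
Top2a: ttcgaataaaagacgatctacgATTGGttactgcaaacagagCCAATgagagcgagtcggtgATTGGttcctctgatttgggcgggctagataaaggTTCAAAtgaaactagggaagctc
Kif11: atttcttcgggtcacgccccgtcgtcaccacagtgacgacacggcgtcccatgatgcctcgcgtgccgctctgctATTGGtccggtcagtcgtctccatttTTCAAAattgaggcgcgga
The Mybl2 stretch holds neither motif. In Cdc20 the CHR begins 18 bases before the start, between CCAAT boxes that begin 53 and 8 bases before it. Cdk1 has CHR matches beginning 71 and 15 bases and inverted CCAAT boxes beginning 80 and 48 bases before its start. The CHR of Ncapg begins 30 bases, that of Top2a 23 bases and that of Kif11 19 bases before the start, and the log2 fold changes of these genes, none of them called, were -1.33, -0.71 and -0.35. Over the 24 members with a CHR match the log2 fold change ran from -1.42 to 0.77 with a median of -0.22, and over the 8 without one from -2.77 to 0.26 with a median of -0.52. Each set held 1 member called lower, Cdc20 with a CHR and Mybl2 without one. The remaining member called lower, Ccna2, had no window, nor did Cdc25c, Tpx2, Aurkb, Incenp, Kif20a, Smc4 and Foxm1.

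**Figure D1:**
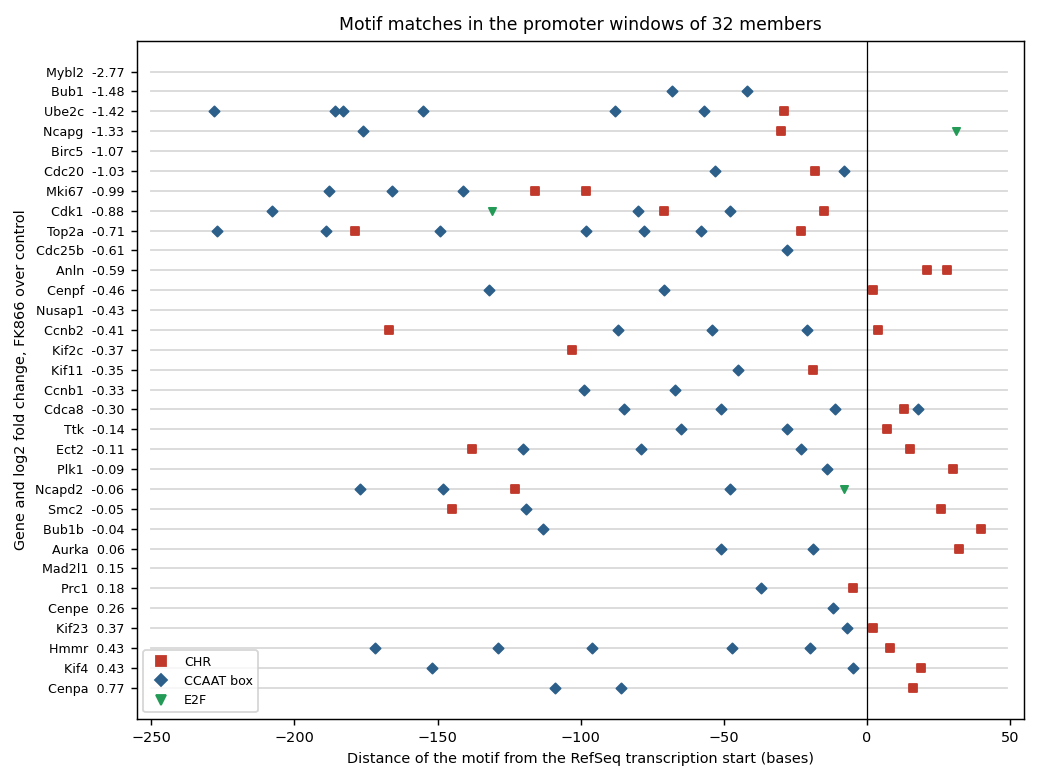
Positions of CHR (red squares), CCAAT (blue diamonds) and E2F (green triangles) motif matches in the promoter windows of 32 members, in bases from the RefSeq transcription start; rows run from the lowest log2 fold change of FK866 over control (Mybl2, -2.77, top) to the highest (Cenpa, 0.77, bottom). CHR matches lie close to the start in genes at both ends of the order, while the Mybl2 row holds no match for the spellings searched.

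Library totals were 27617750 and 32241615 counts for FK866 replicates 1 and 2, and 37841233 and 32540325 for control replicates 1 and 2. The members held only 0.0423% to 0.0472% of the counts of a library. FK866 replicate 2 had more gene IDs with at least 10 counts (22461) than the other libraries (17152 to 18667). All 12 ILC2 markers, among them Gata3 and Il1rl1, reached at least 1 CPM (counts relative to the library total after TMM scaling) in every library. The summed ILC2 markers stood at 4348 to 5279 CPM in FK866 libraries and 4487 to 4874 CPM in control libraries, but single markers lay in opposite directions. Rora was at 1185 and 1128 CPM in FK866 libraries and 337.3 and 374.6 CPM in control libraries, and Il13 was at 65.0 and 34.6 CPM in FK866 libraries and 161.3 and 117.6 CPM in control libraries. Gata3, Klrg1, Il2ra, Il17rb, Thy1 and, by a small margin, Ptprc were likewise lower in both FK866 libraries than in both controls. Il7r, like Rora, was higher in both, at 311.2 and 345.5 CPM in FK866 libraries and 146.9 and 274.8 CPM in control libraries. For Il1rl1, Areg and Il5 the groups overlapped. Markers of T cells (6 genes), myeloid cells (5), mast cells (3) and fibroblasts (3) summed to at most 21.2 CPM in any library. Of the T cell markers, Trac, Cd3d and Cd8a were under 1 CPM throughout, while Cd3g was at 14.7 and 14.8 CPM in FK866 libraries and 14.4 and 15.4 CPM in control libraries and Cd3e and Cd4 exceeded 1 CPM in every library. Cd79a and Cdh5 were under 1 CPM throughout, and Krt8 was at 0. NK cell and ILC1 markers summed to 5.97 and 10.5 CPM in FK866 libraries and 9.72 and 7.94 CPM in control libraries. Some sums moved with the groups. Epithelial markers, mostly Epcam, summed to 27.3 and 39.9 CPM in FK866 libraries and 42.3 and 55.1 CPM in control libraries, and B cell markers, mostly Cd79b, to 19.2 and 25.2 CPM in FK866 libraries and 31.6 and 34.8 CPM in control libraries. Endothelial markers, mostly Pecam1, summed to 224.9 and 187.4 CPM in FK866 libraries and 180.6 and 142.8 CPM in control libraries, and myeloid markers to 5.49 and 4.65 CPM in FK866 libraries and 1.68 and 2.91 CPM in control libraries. Fibroblast markers summed to 3.04 and 2.88 CPM in FK866 libraries and 1.82 and 1.29 CPM in control libraries. The ILC3 markers, mostly Il22, summed to 259.8 and 134.0 CPM in FK866 replicates 1 and 2 and to 279.1 and 164.1 CPM in control replicates 1 and 2, so they were higher in replicate 1 of each group. The part of these markers in the results was not tested.

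Most members were weakly expressed. Their mean over the 4 libraries ran from 1.01 CPM to 97.2 CPM with a median of 4.45 CPM, and 22 of them lay under 5 CPM. Per kilobase of merged exons, the median member stood at 0.996 CPM per kb. The median was 1.59 CPM per kb for 71 other mitosis genes and 8.15 CPM per kb for 40 genes of the G1 and S phases. Smc4 was the highest on this scale at 18.7 CPM per kb and Cenpf the lowest at 0.105. The precision of the fold changes went with the level. The standard error (SE) of the log2 fold change had a median of 0.53 among the 22 members under 5 CPM and of 0.18 among the 6 members over 20 CPM.

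**Figure D2:**
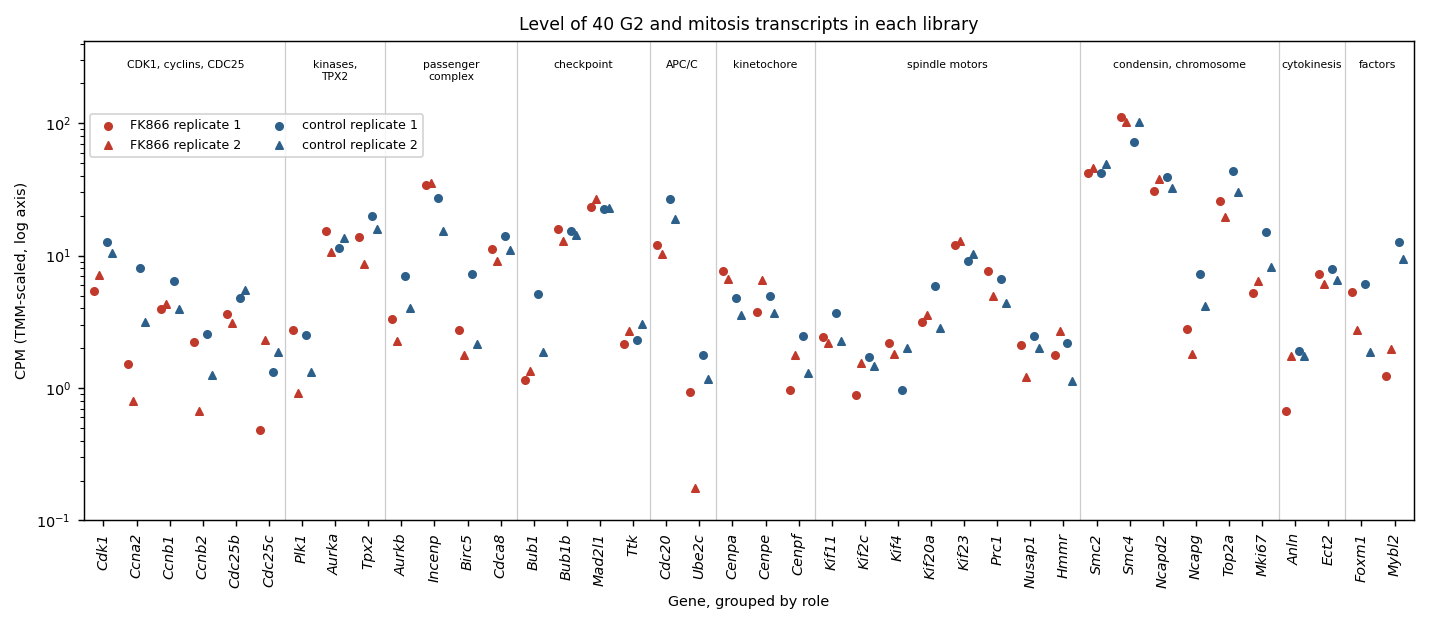
Level of each of the 40 transcripts in each library, in CPM on a log axis, grouped by role; red symbols are FK866 and blue are control, with circles for replicate 1 and triangles for replicate 2. Mybl2, Ccna2 and Cdc20 show both red points below both blue ones, and for 31 of the 40 genes the blue circle lies above the blue triangle.

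Few of the G2 and mitosis transcripts passed the threshold. Of the 40 members, 3 were lower in FK866 libraries (Mybl2, Ccna2 and Cdc20) and 0 were higher (edgeR quasi-likelihood fit of 19194 genes, threshold 0.05 on the p adjusted by Benjamini-Hochberg). The 3 are 7.5% of the members, and 7.89% of all genes tested were called lower and 5.31% higher, so the members' share is close to the background. At an unadjusted p under 0.05 there were 12 of 40 members, a share similar to that of all genes (5370 of 19194). Of these 12 members, 10 had a lower and 2 a higher value in FK866. DESeq2 called 7 members lower and 1 higher (9.91% and 7.76% of all genes). The sign of the fold change was negative for 29 of 40 members (72.5%), against 48.5% of all genes, and the median log2 fold change was -0.34, against 0.03 over all genes. Both FK866 libraries lay below both controls for 13 members (32.5%, against 29.3% of all genes), both lay above for 4 (10%, against 28.4%), and for 23 the groups overlapped.

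**Figure D3:**
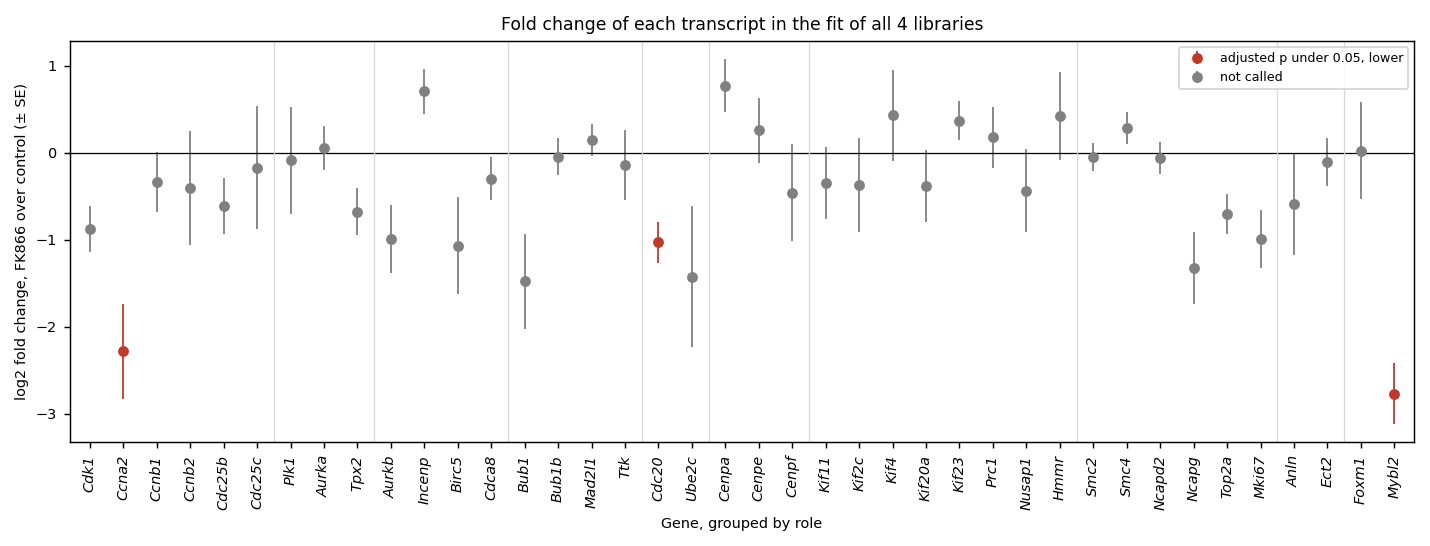
Log2 fold change of FK866 over control for each of the 40 transcripts, with its SE from the edgeR fit of all 4 libraries, grouped by role; red points had an adjusted p under 0.05. Mybl2 (-2.77), Ccna2 (-2.28) and Cdc20 (-1.03) are the red points, and the error bars are long for the weakly expressed genes.

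The control libraries differed in these genes. Control replicate 1 had the higher value of the 2 controls in 31 of 40 members (77.5%, against 48.3% of all genes tested), with a median log2 ratio of 0.40 over replicate 2, against -0.01 over all genes. It was at least 2-fold above replicate 2 in 4 members (10%, against 1.72% of all genes). In 24 of the 40 members it was the highest of the 4 libraries, against 4582 of all 19194 genes tested. Of the FK866 libraries, replicate 1 was below replicate 2 in 18 members (45%, against 47% of all genes). In either direction, the FK866 libraries were at least 2-fold apart in 4 members (Ccnb2, Cdc25c, Plk1 and Ube2c; 6.34% of all genes) and the control libraries in 4 (Ccna2, Birc5, Bub1 and Foxm1; 5.15% of all genes). Of the 40 members, 30 were lower in FK866 replicate 1 than in control replicate 1 (49.4% of all genes were), with a median log2 ratio of -0.35, and 26 were lower in FK866 replicate 2 than in control replicate 2 (49.2% of all genes were), with a median of -0.13. Without control replicate 1 the members' median log2 fold change was -0.07, with Mybl2 at -2.56, Ccna2 at -1.47 and Cdc20 at -0.80. In the same fit Incenp was at 1.15 and Smc4 at 0.02. Without control replicate 2 the median was -0.57, with Mybl2 at -2.98, Ccna2 at -2.84 and Cdc20 at -1.28. Incenp was at 0.34 and Smc4 at 0.53 in that fit. Without FK866 replicate 1 the median was -0.28, with Mybl2 at -2.48, Ccna2 at -2.81 and Cdc20 at -1.14. Without FK866 replicate 2 it was -0.30, with Mybl2 at -3.16, Ccna2 at -1.88 and Cdc20 at -0.92. What sets control replicate 1 apart was not tested.

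**Figure D4:**
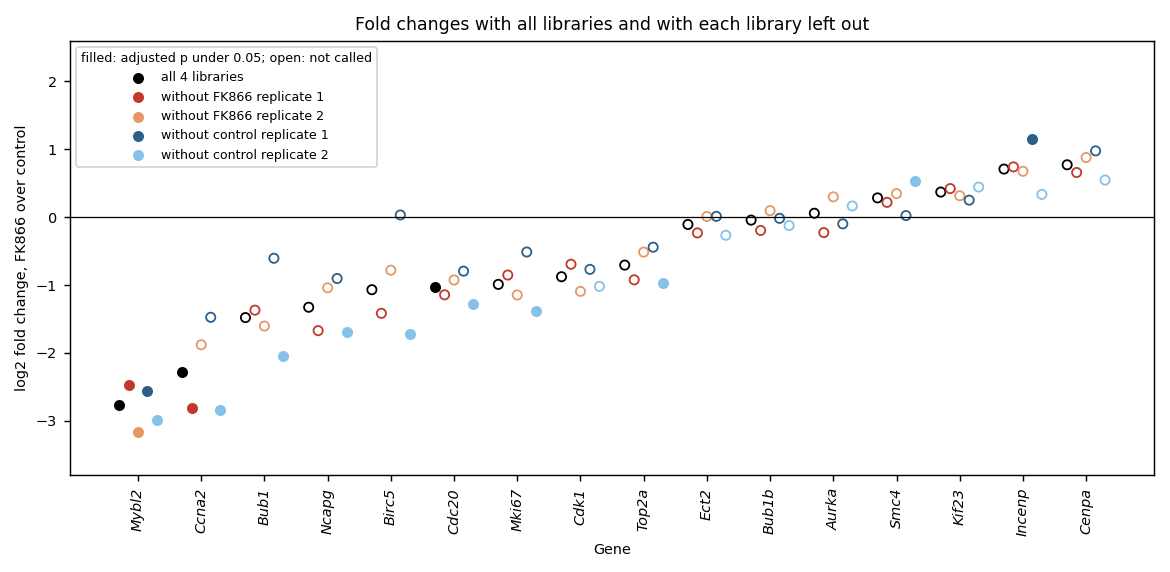
Log2 fold change of FK866 over control for the 16 members given in full, from all 4 libraries (black) and with each library left out (colours); filled points had an adjusted p under 0.05. Mybl2 is filled in every fit, while the points of Birc5 run from -1.72 without control replicate 2 to 0.03 without control replicate 1.

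Of the transcription factor genes, Mybl2 was lower and Foxm1 was not called, and whether they differ was not tested. Mybl2 encodes B-MYB, the partner that turns MuvB into an activator of late cell cycle genes (ENSMUSG00000017861, mm10 chromosome 2, 163054687 to 163084688, plus strand). It had 1.22 and 1.97 CPM in FK866 libraries, against 12.6 and 9.36 CPM in control libraries. Both FK866 values lay far below both controls. The log2 fold change was -2.77 ± 0.35 (SE, n = 2 each; edgeR adjusted p = 0.00306), and it stayed between -3.16 and -2.48, with a call each time, as each library was left out. Foxm1, which encodes the forkhead factor that acts after B-MYB, had 5.34 and 2.76 CPM in FK866 libraries and 6.06 and 1.87 CPM in control libraries. Its groups overlapped fully, with the replicate 1 library higher in each, and the log2 fold change was 0.02 ± 0.55 (SE, n = 2 each; edgeR adjusted p = 0.988).

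Among CDK1 and its partners, cyclin A2 had the lowest fold change. Ccna2 (ENSMUSG00000027715, chromosome 3, 36564865 to 36572150, minus strand) encodes the cyclin that drives S phase with CDK2 and entry into mitosis with CDK1. It had 1.52 and 0.794 CPM in FK866 libraries (41 and 27 counts), against 8.06 and 3.13 CPM in control libraries (293 and 102 counts). Both FK866 values were below both controls, which themselves differed widely. The log2 fold change was -2.28 ± 0.55 (SE, n = 2 each; edgeR adjusted p = 0.0286). The call did not hold with control replicate 1 left out (-1.47, adjusted p = 0.189) or with FK866 replicate 2 left out (-1.88, adjusted p = 0.0579). Exons on the opposite strand cover 12.5% of the exon bases of Ccna2. The libraries do not mark the strand, so reads there cannot be told apart, and the same holds over more than 10% of the exon bases of 6 other members, Kif20a (29.3%), Ube2c (22.8%), Kif4 (15.1%), Ncapg (13.4%), Cdc25c (12.7%) and Prc1 (11.1%).

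Cdk1 itself, the kinase at the centre of the module, had 5.41 and 7.15 CPM in FK866 libraries, against 12.6 and 10.5 CPM in control libraries. The groups did not overlap, and the log2 fold change of -0.88 ± 0.27 (SE, n = 2 each) had the smallest adjusted p of the members not called (edgeR adjusted p = 0.0644). The B-type cyclin genes had smaller fold changes. Ccnb1 had 3.93 and 4.32 CPM in FK866 libraries and 6.41 and 3.99 CPM in control libraries, and its log2 fold change was -0.33. For Ccnb2 it was -0.41 with an SE of 0.65. The CDC25 phosphatase genes, whose products remove the inhibitory phosphates of CDK1, stood at -0.61 (Cdc25b) and -0.17 (Cdc25c). Cdc25c had 13 counts in FK866 replicate 1 and 79 in FK866 replicate 2, and the control values lay between them in CPM.

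Cdc20 carried the remaining call. It encodes the coactivator through which the APC/C recognises cyclins and securin at the onset of anaphase (ENSMUSG00000006398, chromosome 4, 118432901 to 118437352, minus strand). FK866 libraries had 12.01 and 10.3 CPM, against 26.6 and 19.0 CPM in control libraries. There was no overlap, with a log2 fold change of -1.03 ± 0.24 (SE, n = 2 each; edgeR adjusted p = 0.0244). The fold change ran from -1.28 to -0.80 as each library was left out, and only without control replicate 2 was it called (adjusted p = 0.0122, against 0.0507, 0.0755 and 0.0916 in the other fits). Ube2c, the ubiquitin-conjugating enzyme that starts chains on APC/C substrates, had 25 and 6 counts in FK866 libraries and 64 and 38 counts in control libraries. Its log2 fold change of -1.42 had an SE of 0.81, and a difference was not detectable with these libraries (edgeR adjusted p = 0.299).

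The chromosomal passenger complex joins Aurora B to its scaffold and targeting subunits and corrects faulty attachments of microtubules. None of its genes was called with all libraries. Their fold changes differed in sign, and whether the genes differ from each other was not tested. Incenp, the scaffold, had 34.1 and 35.7 CPM in FK866 libraries, against 27.2 and 15.4 CPM in control libraries. Both FK866 values were above both controls, but the controls lay further from each other than control replicate 1 from the nearest FK866 value, and the log2 fold change of 0.71 ± 0.26 (SE, n = 2 each) did not pass (edgeR adjusted p = 0.109); it was called without control replicate 1 (1.15, adjusted p = 0.00908). Birc5, which encodes the targeting subunit survivin, had 2.74 and 1.76 CPM in FK866 libraries and 7.27 and 2.15 CPM in control libraries. Here control replicate 1 alone stood out, and the log2 fold change was -1.07 ± 0.56 (SE, n = 2 each; edgeR adjusted p = 0.258), or -1.72 without control replicate 2 (adjusted p = 0.0377) and 0.03 without control replicate 1. The kinase gene Aurkb stood at -0.99 ± 0.39 (SE; edgeR adjusted p = 0.139) and the borealin gene Cdca8 at -0.30.

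Of the other mitotic kinases and the activator of Aurora A, none was called. Aurka, whose product matures centrosomes and spindle poles, had 15.5 and 10.7 CPM in FK866 libraries and 11.4 and 13.7 CPM in control libraries. The control values lay between the FK866 values, with a log2 fold change of 0.06 ± 0.25 (SE, n = 2 each; edgeR adjusted p = 0.92). Tpx2, which activates Aurora A on spindle microtubules, was at 13.8 and 8.65 CPM in FK866 libraries and 19.9 and 16.0 CPM in control libraries (log2 -0.68, edgeR adjusted p = 0.138). Plk1, the polo-like kinase, had a log2 fold change of -0.09 with an SE of 0.62.

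No gene of the spindle checkpoint was called with all libraries. Bub1, a kinase that recruits checkpoint proteins to kinetochores, had 1.15 and 1.35 CPM in FK866 libraries, against 5.12 and 1.87 CPM in control libraries. The FK866 values were lowest, and control replicate 1 was far above the rest. The log2 fold change was -1.48 ± 0.54 (SE, n = 2 each; edgeR adjusted p = 0.111), and it was -2.05 without control replicate 2 (adjusted p = 0.0321) but -0.61 without control replicate 1. Bub1b encodes BUBR1, which holds CDC20 inactive in the checkpoint complex. It had 15.8 and 12.9 CPM in FK866 libraries and 15.4 and 14.2 CPM in control libraries, with a log2 fold change of -0.04 ± 0.22 (SE, n = 2 each; edgeR adjusted p = 0.932). Mad2l1, the other inhibitor of CDC20, was at 23.4 and 26.9 CPM in FK866 libraries and 22.4 and 23.0 CPM in control libraries (log2 0.15), and the kinase gene Ttk was at -0.14.

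At the centromere, Cenpa had the highest fold change of all 40 members. Its product is the histone H3 variant that marks where kinetochores form. It had 7.71 and 6.62 CPM in FK866 libraries, against 4.82 and 3.56 CPM in control libraries. Both FK866 values lay above both controls, and the log2 fold change was 0.77 ± 0.31 (SE, n = 2 each; edgeR adjusted p = 0.137). The kinetochore motor gene Cenpe stood at 0.26 and the gene of the outer kinetochore protein CENP-F (Cenpf) at -0.46, with overlapping groups in both.

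No gene of the spindle motors and microtubule proteins was called, and their adjusted p was at least 0.34. Kif23, whose product forms the centralspindlin motor of the midzone, was the most abundant per kilobase. It had 12.1 and 12.97 CPM in FK866 libraries, against 9.06 and 10.3 CPM in control libraries, a log2 fold change of 0.37 ± 0.23 (SE, n = 2 each; edgeR adjusted p = 0.34). The groups did not overlap but lay close together. Kif11, the plus-end motor that pushes spindle poles apart, stood at -0.35, the depolymerase gene Kif2c at -0.37, the chromokinesin gene Kif4 at 0.43 and Kif20a, which carries the passenger complex to the midzone, at -0.38. The midzone crosslinker gene Prc1 was at 0.18, Nusap1 at -0.43 and Hmmr at 0.43.

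Genes of chromosome structure included the most abundant members. Smc4, a condensin ATPase, had 112 and 102 CPM in FK866 libraries and 72.6 and 103 CPM in control libraries. Only control replicate 1 was low, and the log2 fold change was 0.28 ± 0.18 (SE, n = 2 each; edgeR adjusted p = 0.352), which became 0.53 without control replicate 2 (adjusted p = 0.0396). Its partner gene Smc2 was at 41.8 and 46.1 CPM in FK866 libraries and 42.2 and 48.8 CPM in control libraries (log2 -0.05 ± 0.16, SE), and the condensin subunit gene Ncapd2 was at -0.06.

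Ncapg encodes another condensin I subunit. It had 2.78 and 1.79 CPM in FK866 libraries, against 7.27 and 4.17 CPM in control libraries, without overlap. Its log2 fold change was -1.33 ± 0.41 (SE, n = 2 each; edgeR adjusted p = 0.0673), and it was called without control replicate 2 (-1.70, adjusted p = 0.0386). Top2a encodes the topoisomerase that untangles sister chromatids. It was at 25.9 and 19.5 CPM in FK866 libraries, against 43.9 and 30.2 CPM in control libraries, with a log2 fold change of -0.71 ± 0.23 (SE, n = 2 each; edgeR adjusted p = 0.0821). Mki67, the proliferation antigen that coats mitotic chromosomes, was at 5.23 and 6.41 CPM in FK866 libraries, against 14.97 and 8.16 CPM in control libraries, with -0.99 ± 0.33 (SE, n = 2 each; edgeR adjusted p = 0.0855). Neither gene's groups overlapped, control replicate 1 was the highest library for both, and without control replicate 2 both were called (Top2a -0.98, adjusted p = 0.0217; Mki67 -1.38, adjusted p = 0.0222).

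Of the cytokinesis genes, Ect2, which activates RhoA at the division plane, had 7.27 and 6.15 CPM in FK866 libraries and 7.93 and 6.503 CPM in control libraries. The groups overlapped, with a log2 fold change of -0.11 ± 0.28 (SE, n = 2 each; edgeR adjusted p = 0.86). Anln, which encodes the scaffold anillin of the contractile ring, had 18 and 59 counts in FK866 libraries and 69 and 57 counts in control libraries (log2 -0.59 ± 0.58, SE).

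Other genes of the same machinery, in 6 lists of 171 genes, were read from the same fit. Of 71 further mitosis genes, 17 were lower (23.9%, against 7.89% of all genes tested) and 1 was higher (1.41%, against 5.31%). Their median log2 fold change was -0.59. The lower ones included the tubulin genes Tubb4b (-1.39) and Tuba1b (-1.01), Trip13, whose product dismantles the checkpoint complex (-1.69), and the microtubule destabiliser gene Stmn1 (-1.42). The list holds 6 centromere protein genes, of which Cenpk (-2.65), Cenph (-1.97), Cenpm (-1.72) and Cenpw (-1.23) were lower, and Cenpi (-0.66) and Cenpn (-0.77) were not called; they were singled out after their values were seen. The gene called higher was Kif18a (1.45), a motor that dampens chromosome oscillation, at 10.9 and 12.1 CPM in FK866 libraries and 3.85 and 4.57 CPM in control libraries. The number lower in this list fell without control replicate 1 and without either FK866 library. The number over all genes tested fell too, though only slightly without control replicate 1.

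The genes of G1, S phase and replication act before the members in the cycle. Of this list, 32 of 40 were lower (80%, against 7.89% of all genes tested), and the median log2 fold change was -1.22. The 1 gene with a positive fold change, Gins3 (0.25), was not called. Cdc6 was at -2.61, Mcm2 at -1.44, Mcm5 at -1.40 and Mcm7 at -1.37. Whether this list and the 40 members differ in their response was not tested.

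Among 17 subunits and regulators of the APC/C, 2 were lower (11.8%, against 7.89% of all genes) and 2 higher (11.8%, against 5.31%). Ube2s, which elongates ubiquitin chains after Ube2c, was at 36.0 and 34.8 CPM in FK866 libraries, against 70.4 and 70.4 CPM in control libraries (log2 -0.99), and Cdc23 was at -0.86. Cdc27 (0.79) and Anapc7 (0.57), both scaffold subunits, were the higher ones. Of 14 cohesin and separase genes, Sgo1, which protects centromeric cohesion, was lower (-1.16) and the cohesin loader gene Nipbl higher (0.56), each 7.14% of the list and so near the background. Of 12 genes of entry brakes and checkpoints, Gadd45g (-1.80), Chek1 (-0.94) and the CDK1-inhibiting kinase gene Pkmyt1 (-0.87) were lower (25%) and Gadd45b was higher (1.19; 8.33%). Of 17 regulators, the E2F partner gene Tfdp1 (-1.14), the NF-Y subunit gene Nfyb (-1.05) and the pocket protein gene Rbl1 (-0.99) were lower (17.6%). Lin54, whose product is the subunit of MuvB that binds the CHR, was higher (0.82), as was the NF-Y subunit gene Nfya (0.84), together 11.8%. As single libraries were left out, the calls of Sgo1, Nfya and Cenpw held in none of the 4 fits. Those of Anapc7, Nipbl, Chek1, Pkmyt1, Rbl1 and Lin54 did not hold in at least 2 of the 4, and those of Cdc23, Nfyb and Cenpm did not in 1.

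**Figure D5:**
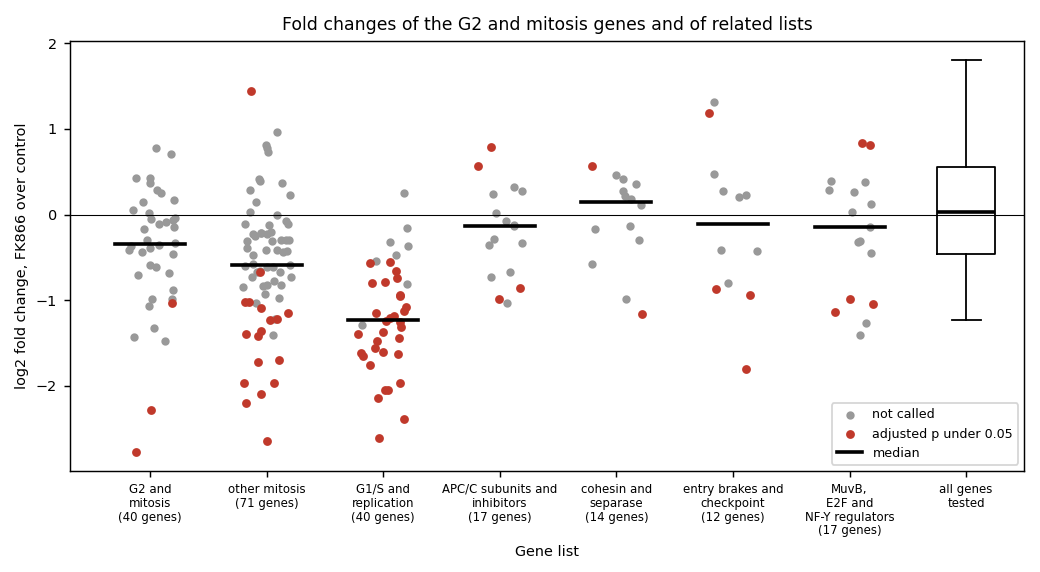
Log2 fold change of FK866 over control for each gene of the 40 members and of 6 related lists, with the median of each list as a black bar and genes with an adjusted p under 0.05 in red; the box at the right gives the quartiles of all 19194 genes tested, with whiskers at the 5th and 95th percentiles. The member median is -0.34, with most points grey, while the genes of G1, S phase and replication have a median of -1.22 and 32 red points.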

How the data were processed

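Per the labels' protocols, RNA was taken with TRIzol and made into full-length cDNA with the SMART-Seq HT kit and into paired-end libraries with the Nextera XT kit, a chemistry that does not mark the strand. The authors deposited raw counts per Ensembl gene ID as whole numbers. The tools named are cutadapt 1.9 and HISAT2 2.2.1 and the build is mm10, per the submitters' processing notes; the read counter and its handling of shared reads were in none of the labels or headers. Gene names, positions and merged exon lengths were taken from GENCODE M21 (mm10).

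Groups and replicate numbers came from the titles. Counts were filtered with filterByExpr (minimum count 10, minimum total 15), scaled by TMM and tested with edgeR 4.0.16 (glmQLFit and glmQLFTest, two-sided, treatment as the only term) in R 4.3.3, with Benjamini-Hochberg adjustment over 19194 genes and a threshold of 0.05. The SE was taken as the absolute log2 fold change over the root of its F statistic. Ratios of single libraries used CPM plus 0.5. Replicates differed by more than sampling noise (chi-square per degree of freedom of 19.0 for FK866 and 35.8 for control). The procedure was tested on simulated data.

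The members, the companion lists and the tests were chosen with earlier results of these data known. Given in full are members called with all libraries or with 1 left out, plus the most abundant of each role per kilobase of exon. From each companion list up to 4 called genes by adjusted p are named, and others are named after their values were seen. With 1 library left out, the lone library of its group is assumed to vary like the others. Alternatives were other scalings, filters, DESeq2 1.42.0, each library left out, the replicate number as a block, and a length and GC trend removed; all columns of the table were used.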

Additional observations from a re-analysis of the deposited data

How the results depend on the processing

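The number of members called lower was 3 with the main settings (7.89% of all genes). It was 7 without a filter (3.31% of all genes), 7 by DESeq2 (9.91%) and 5 after removal of the length and GC trend (7.62%). With the replicate number as a block it was 10 (15.9%), and it ran from 1 to 8 as each library was left out. With upper quartile scaling it was 3 (8.05%), and with library totals 3 (7.61%). The stricter filter called 4 of the 26 members it kept lower, against 15.8% of all genes it kept. The number called higher, 0 with the main settings, was 1 with the stricter filter (17.5% of all genes), 1 by DESeq2 (7.76%) and 2 with the block (11.4%). The stricter filter (at least 100 counts in 2 libraries) kept 26 members, with a median log2 fold change of -0.10 against -0.34. Over all genes, the replicate block gave 3059 lower and 2197 higher, the stricter filter 1816 higher, and leaving out a library 725 to 1550 lower and 446 to 1046 higher. Companion genes called higher, 7 in all, became 16 with the stricter filter, 15 with the block and 3 to 7 with a library left out, and other mitosis genes called lower became 27 with the block and 9 to 18 with a library left out. The numbers of the titles are not stated to pair the cultures, and 2 pairs cannot show it, although libraries with the same number deviated together (correlation 0.40 across 8754 genes, which are not independent).

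Of 425 fold changes of members under 11 alternatives, 352 kept their direction and side of the threshold, 29 came to pass it, 5 ceased to and 39 changed sign, none of the last past the threshold. Leaving out a library changed the sign in Aurka (-0.23 to 0.30), Birc5 (-1.72 to 0.033), Bub1b (-0.19 to 0.10), Ccnb1 (-0.66 to 0.022), Ccnb2 (-1.49 to 0.22), Cdc25c (-1.72 to 0.54), Cenpe (-0.20 to 0.60), Cenpf (-0.96 to 0.064), Ect2 (-0.27 to 0.012), Foxm1 (-0.61 to 1.07), Kif11 (-0.68 to 0.0043), Kif20a (-0.84 to 0.21), Kif4 (-0.035 to 1.02), Ncapd2 (-0.23 to 0.090), Plk1 (-1.08 to 0.51), Prc1 (-0.17 to 0.48), Smc2 (-0.18 to 0.036) and Ttk (-0.36 to 0.052). With library totals in place of TMM the log2 fold change was 0.0049 for Bub1b, 0.0023 for Smc2 and 0.0016 for Ncapd2, and with the stricter filter 0.053, 0.050 and 0.049. After removal of the length and GC trend it was -0.016 for Cenpe, -0.051 for Foxm1, -0.11 for Mad2l1 and 0.054 for Plk1, and without a filter -0.0061 for Foxm1. The cause was not tested. Fold changes were less precise for the 22 members under 5 CPM, whose SE had a median of 0.53 on the log2 scale. The parts of depth and of spread between libraries in this were not tested.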
